A study of Homo sapiens with 14 samples.

Results

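The miR-148 and miR-152 family and miR-101 were represented by 7 mature miRNAs: hsa-miR-148a-3p, hsa-miR-148a-5p, hsa-miR-148b-3p, hsa-miR-148b-5p, hsa-miR-152-3p, hsa-miR-101-3p and hsa-miR-101-5p. They were taken by name, with no threshold on a measured value, from the 2588 miRNAs listed in each count table. hsa-miR-148a-3p and hsa-miR-101-3p also served the study as negative miRNAs in its RIP-qPCR panel, in which antibody enrichment of single miRNAs was measured by qPCR. The miRNAs were counted in A549 cells, a human lung adenocarcinoma line, by a pair of assays for internal N7-methylguanosine (m7G), a methyl mark on guanosine. In both, total RNA was first stripped of its cap, since the cap itself carries m7G. BoRed-seq is chemical: sodium borohydride opens the way to base loss at m7G, a biotin probe is attached at the resulting abasic site and the labelled RNA is pulled down on streptavidin. Its reduced libraries (Red, n = 2) were compared with mock-reduced libraries (Ctrl, n = 2), for which the borohydride had been quenched with acid beforehand and which went through the same labelling and pulldown. m7G-RIP-seq compared RNA bound by an antibody to m7G (IP, n = 5) with RNA set aside before the pulldown (Input, n = 5). Every library came from this line without a genetic change or drug, so that no contrast here alters an m7G enzyme, and a pulldown ratio measures relative recovery, not the fraction of molecules methylated. Defining markers of A549 cells were not analysed here, since the tables used hold miRNA counts.

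A mature miRNA guides an Argonaute protein to messenger RNAs that pair with its seed, bases 2 to 8. A hairpin precursor gives a 5p and a 3p arm, of which the guide arm is kept and the passenger arm is mostly lost. miR-148a-3p, miR-148b-3p and miR-152-3p share a seed and form a family known for repression of DNMT1, the maintenance DNA methyltransferase. miR-101-3p is known as a repressor of EZH2, the catalytic subunit of Polycomb repressive complex PRC2, which methylates histone H3. Both are often described as lowered in tumours.

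The guide arms are shown first, since the family members differ at so few positions that the assays compare nearly the same molecule. Capitals mark the seed, sequences run 5′ to 3′, and both sequences and positions are from RefSeq (GRCh38.p14, hg38).
hsa-miR-148a-3p (MIR148A, chr7:25949922-25949943, minus strand): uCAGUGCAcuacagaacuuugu
hsa-miR-148b-3p (MIR148B, chr12:54337278-54337299, plus strand): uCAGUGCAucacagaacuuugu
hsa-miR-152-3p (MIR152, chr17:48037174-48037194, minus strand): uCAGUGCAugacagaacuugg
hsa-miR-101-3p (MIR101-2, chr9:4850345-4850365, plus strand): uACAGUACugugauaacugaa
Counting from base 1 at the 5′ end, miR-148a-3p and miR-148b-3p differed at 2 of 22 positions, C9U and U10C. miR-148a-3p and miR-152-3p differed at 3 of 21 compared positions (C9U, U10G and U20G), and miR-148b-3p and miR-152-3p at 2 of 21 (C10G and U20G). All of these changes lie outside the seed, and the seed CAGUGCA was held by no other miRNA with a sequence in the reference. miR-148a-3p and miR-148b-3p each have 4 G, at the same positions 4, 6, 14 and 21, whereas miR-152-3p has 6, including a GG at positions 20 and 21. The passenger arms found in the reference are shown for the arm comparison further on.
hsa-miR-148b-5p (MIR148B, chr12:54337240-54337261, plus strand): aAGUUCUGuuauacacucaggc
hsa-miR-101-5p (MIR101-1, chr1:65058477-65058498, minus strand): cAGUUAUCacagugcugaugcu
hsa-miR-148a-5p is given by name only. The MIR148B hairpin lies in an intron of COPZ1 and the MIR152 hairpin in an intron of COPZ2, paralogous genes for a coatomer subunit. MIR148A lies in an intron of a long noncoding RNA, MIR101-1 in an intron of JAK1 and MIR101-2 in an intron of RCL1. miR-101-3p can arise from both MIR101 hairpins, and its reads cannot be assigned to either of them.

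Depth differed between the groups. Total miRNA counts were 4678102 and 5874405 in Ctrl, 242085 and 277498 in Red, 7097379 to 14874685 in Input and 2854811 to 6452759 in IP. A single miRNA, miR-21-5p, took 79.0% and 80.4% of the counts in Ctrl, 26.9% and 26.7% in Red, 38.0% to 46.3% in Input and 4.64% to 6.27% in IP. Library scaling therefore matters, and normalized counts below are raw counts divided by the DESeq2 median-of-ratios size factor of the library.

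All 4 guide arms were well measured in both control groups, and the passenger arms were scarce. Input is RNA before pulldown, whereas the Ctrl levels are what the mock-reduced pulldown recovered. Levels are given here as CPM, a count scaled to the total of all miRNA counts in its library, with mean ± SD. In Input (n = 5), hsa-miR-101-3p stood highest at 915 ± 77.1, rank 56 of the 2588 miRNAs, followed by hsa-miR-148b-3p at 735 ± 213, hsa-miR-148a-3p at 289 ± 87.9 and hsa-miR-152-3p at 222 ± 72.6. The ranges of miR-101-3p and miR-148b-3p overlapped, as did those of miR-148a-3p and miR-152-3p, so that only the step from miR-148b-3p to miR-148a-3p separated all libraries. hsa-miR-148a-5p reached 20.7 ± 10.2 and hsa-miR-148b-5p 12.1 ± 3.68, again with overlapping ranges. In Ctrl (n = 2) hsa-miR-101-3p was at 2613 ± 376, hsa-miR-148b-3p at 461 ± 188, hsa-miR-148a-3p at 422 ± 11.8 and hsa-miR-152-3p at 109 ± 2.82, with overlap only between miR-148b-3p and miR-148a-3p. Divided by length in bases, the order of the members with a sequence was the same in both groups. In bulk RNA, fewer cells holding a miRNA and less of it per cell cannot be told apart.

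hsa-miR-101-5p was at the limit of detection. Its raw counts were 2 and 4 in Ctrl, 1 and 1 in Red, 0, 0, 1, 3 and 1 in Input replicates 1 to 5, and 0 in all 5 IP libraries. A count of 0 there allows a share of up to 4.65e-05% to 0.000105% of a library, for counting error only. It did not pass the filter on low counts in either assay, which left 6 members tested in each.

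In BoRed-seq, no member was enriched and miR-101-3p showed the deepest depletion. Of the 6 members tested, 4 were lower in Red than in Ctrl at an adjusted p under 0.05 (DESeq2 Wald test, Benjamini-Hochberg over all miRNAs tested). Over all 400 miRNAs tested, 27.2% were depleted and 32.2% enriched by the same rule. The median log2 enrichment, Red over Ctrl, was -1.59 over the 6 members and -0.09 over all miRNAs tested. Each member counted as lower also had both Red libraries below both Ctrl libraries, a separation seen for 43.2% of all miRNAs tested. Among the 4, hsa-miR-148b-5p passed the filter on low counts through its Ctrl libraries alone.

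hsa-miR-101-3p had normalized counts of 3816 and 5007 in Ctrl against 307 and 536 in Red. Red was 10.4-fold lower, with a log2 enrichment of -3.38 ± 0.35 (SE, adjusted p = 4.16e-21, DESeq2), which ranked 26 from the lowest of 400. The size depended on single libraries, with -4.34 without Ctrl replicate 1 and -2.66 without Red replicate 1, both past the threshold. hsa-miR-148b-3p had 965 and 571 normalized counts in Ctrl and 293 and 250 in Red, with a log2 enrichment of -1.51 ± 0.37 (adjusted p = 0.00013, DESeq2) and -2.43 without Ctrl replicate 2. hsa-miR-152-3p stood at 180 and 186 in Ctrl and at 55.6 and 58.7 in Red, the latter from 15 and 24 raw counts. Its log2 enrichment was -1.67 ± 0.44 (adjusted p = 0.0004, DESeq2), close in size to that of miR-148b-3p, and -2.48 without Ctrl replicate 1. The passenger arm hsa-miR-148b-5p had 73 and 74 raw counts in Ctrl and 1 in each Red library. Per unit of library size that is a ratio of Ctrl to Red of 7.91, with an exact 95% counting interval of 2.15 to 66.0. The DESeq2 adjusted p of 0.0431 was close to the threshold. With Ctrl counts drawn at random down to the mean Red total, hsa-miR-148b-5p had 5 and 5 counts in Ctrl and was not tested. In that setting 4 members were tested and 3 were depleted, against 63 of all 258 miRNAs tested.

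Both arms of miR-148a behaved otherwise. hsa-miR-148a-3p, the guide arm, had normalized counts of 700 and 720 in Ctrl and of 648 and 1033 in Red. One Red library lay below and the other above both Ctrl libraries, and the log2 enrichment of 0.25 ± 0.33 did not pass the test (adjusted p = 0.531, DESeq2). hsa-miR-148a-5p was at 14.1 and 10.8 in Ctrl and 14.8 and 24.5 in Red, from 4 and 10 raw counts in Red, and its log2 enrichment of 0.68 ± 0.89 did not pass either (adjusted p = 0.523, DESeq2). 

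The BoRed-seq calls depended on the scaling. With total counts as size factors, the median of all miRNAs moved from -0.09 to 1.19, only hsa-miR-101-3p remained depleted (-2.20, adjusted p = 3.96e-07, DESeq2) and hsa-miR-148a-3p counted as enriched (1.41, adjusted p = 0.00125), where 175 of 391 miRNAs were enriched and 46 depleted instead of 129 and 109 of 400. With edgeR and TMM factors 4 members were again depleted, with 128 enriched and 167 depleted of 453. Relative to the median of all miRNAs, the 4 guide arms kept their sign and order. miR-148a-3p lay 0.34 above it with median-of-ratios factors, 0.22 above it with total counts and 0.59 above it with TMM factors in DESeq2. With the factors in the same order, miR-148b-3p lay at -1.42, -1.60 and -1.17 and miR-152-3p at -1.58, -1.73 and -1.34. miR-101-3p lay at -3.29, -3.39 and -3.04. Without Red replicate 1, the calls of hsa-miR-152-3p (-1.26, adjusted p = 0.0735) and hsa-miR-148b-5p (-2.90, adjusted p = 0.169) were lost, and the latter was also lost without Red replicate 2 (-2.54, adjusted p = 0.236).

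**Figure D1:**
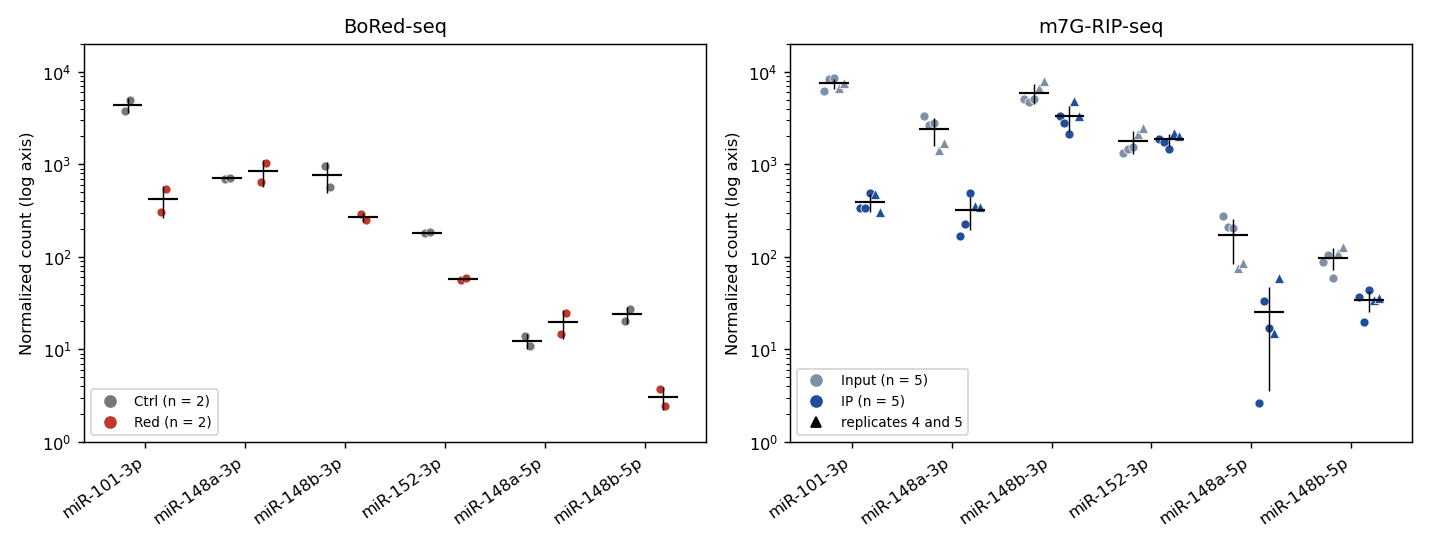
Normalized counts (DESeq2 median-of-ratios, log axis) of the 6 tested members, each point 1 library, with the group mean as a horizontal line and its SD as a vertical line (left, BoRed-seq, n = 2 per group; right, m7G-RIP-seq, n = 5 per group; triangles are replicates 4 and 5, and the scale of each assay is its own). miR-101-3p was lower in the pulldown in both assays, miR-148a-3p was lower in m7G-RIP-seq and overlapped in BoRed-seq, and miR-152-3p was lower in BoRed-seq and overlapped in m7G-RIP-seq.

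In m7G-RIP-seq, 5 of the 6 members tested were lower in IP than in Input and none was enriched. Of all 670 miRNAs tested, 29.9% were depleted and 27.3% enriched. The median log2 enrichment, IP over Input, was -2.14 over the members and 0.02 over all miRNAs tested. For 4 of the 5 lower members every IP library lay below every Input library, against 24.2% of all miRNAs tested. Among these 4, hsa-miR-148a-5p passed the filter on low counts through its Input libraries alone. With at least 10 counts demanded in every library, 5 members were tested and 4 were depleted, against 116 of all 362 miRNAs tested.

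hsa-miR-101-3p had normalized counts of 6250, 8386, 8486, 6766 and 7544 in Input replicates 1 to 5 and of 340, 333, 493, 479 and 307 in IP. The means were 7486 ± 982 and 391 ± 88.2 (SD, n = 5), with no overlap. IP was 19.2-fold lower (log2 enrichment -4.26 ± 0.20, adjusted p = 3.21e-99, DESeq2), rank 22 from the lowest of 670. hsa-miR-148a-3p had 3333, 2678, 2783, 1439 and 1699 in Input against 166, 229, 489, 357 and 349 in IP. These groups did not overlap either, and IP was 7.52-fold lower over all 5 replicates (log2 enrichment -2.91 ± 0.34, adjusted p = 9.19e-17, DESeq2).

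The family members closest to miR-148a-3p in sequence changed far less. hsa-miR-148b-3p had 5134, 4696, 5108, 6679 and 7985 normalized counts in Input and 3367, 2809, 2105, 4834 and 3365 in IP. IP replicate 4 lay above Input replicate 2, so the groups overlapped. Within replicates 1 to 3 they did not overlap (4696 to 5134 in Input, 2105 to 3367 in IP). Neither did they within replicates 4 and 5 (6679 to 7985 in Input, 3365 to 4834 in IP). The log2 enrichment was -0.84 ± 0.26 (adjusted p = 0.00272, DESeq2). That call was lost with total-count factors (-0.53, adjusted p = 0.0807), under which the median of all miRNAs was 0.38 and 232 miRNAs were enriched and 164 depleted instead of 183 and 200. hsa-miR-152-3p had 1336, 1462, 1538, 2116 and 2462 in Input and 1872, 1755, 1450, 2204 and 2027 in IP, overlapping throughout. Its log2 enrichment of 0.06 ± 0.23 lay at the median of all miRNAs and did not pass the test (adjusted p = 0.836, DESeq2).

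Both tested passenger arms were lower in IP. hsa-miR-148a-5p had 278, 212, 207, 75.8 and 85.8 normalized counts in Input and 2.64, 33.2, 16.9, 15.2 and 59.6 in IP, a log2 enrichment of -2.75 ± 0.62 (adjusted p = 3.04e-05, DESeq2). The IP values were widely spread and rested on raw counts of 2 to 47. hsa-miR-148b-5p had 88.2, 105, 58.8, 109 and 127 in Input and 36.9, 19.7, 44.3, 34.5 and 35.5 in IP, a log2 enrichment of -1.53 ± 0.33 (adjusted p = 1.11e-05, DESeq2). The groups did not overlap for either arm.

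The 5 Input libraries fell into replicates 1 to 3 and replicates 4 and 5, sets that had been noticed in these data and that no label describes. Guide arms of the family moved in opposite directions between them. hsa-miR-148a-3p had 2678 to 3333 normalized counts in Input replicates 1 to 3 and 1439 to 1699 in replicates 4 and 5, and hsa-miR-148a-5p 207 to 278 and 75.8 to 85.8. hsa-miR-148b-3p went from 4696–5134 to 6679–7985 and hsa-miR-152-3p from 1336–1538 to 2116–2462. hsa-miR-101-3p did not separate the sets, with 6250 to 8486 and 6766 to 7544. Within replicates 1 to 3 alone the same number of members, 5, was depleted, and within replicates 4 and 5 alone 4 were, the call of hsa-miR-148a-5p being lost (-1.22, adjusted p = 0.0859, DESeq2). With a term for the sets in the fit, the same 5 members were depleted, with log2 enrichments of -4.26 for hsa-miR-101-3p, -2.85 for hsa-miR-148a-3p, -2.68 for hsa-miR-148a-5p, -1.52 for hsa-miR-148b-5p and -0.85 for hsa-miR-148b-3p. The sets differed most in the size of the miR-148a depletion: hsa-miR-148a-3p had -3.35 in replicates 1 to 3 (adjusted p = 4.56e-29, DESeq2) and -2.24 in replicates 4 and 5 (adjusted p = 2.74e-35), and hsa-miR-148a-5p -3.73 and -1.22. Whether the depletion differed between the sets was not tested.

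The assays differed for 3 of the 6 members. A z test compared the log2 enrichment of a miRNA in BoRed-seq with that in m7G-RIP-seq on their standard errors, with adjustment over the 384 miRNAs tested in both. By this test 29.4% of all miRNAs had the higher enrichment in BoRed-seq (113) and 8.59% in the antibody assay (33), with a median difference of 0.62. With total-count factors these counts were 163 and 9, and with edgeR and TMM factors 64 and 49. hsa-miR-148a-3p was higher in BoRed-seq by 3.16 ± 0.47 on the log2 scale (SE, adjusted p = 4.20e-10). This difference passed the threshold under every alternative run, with 2.35 without Ctrl replicate 1 and 3.83 without Red replicate 1. hsa-miR-148a-5p was higher by 3.43 ± 1.09 (adjusted p = 0.00642 in the z test on DESeq2 estimates), a call that was lost with edgeR (adjusted p = 0.0796), with no count filter (0.0683) and without Ctrl replicate 1 (0.201), Ctrl replicate 2 (0.200) or Red replicate 2 (0.110).

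hsa-miR-152-3p was the only member that was higher in m7G-RIP-seq by this test, with a difference, BoRed-seq minus m7G-RIP-seq, of -1.74 ± 0.50 (adjusted p = 0.00231). That call was lost with total-count factors (-0.92, adjusted p = 0.180), without Red replicate 1 (-1.33, adjusted p = 0.103) and without Red replicate 2 (-1.63, adjusted p = 0.0609). For hsa-miR-148b-5p (-1.47 ± 1.38, adjusted p = 0.417) no difference was detected. hsa-miR-148b-3p did not pass either (-0.66 ± 0.45, adjusted p = 0.243), but passed without Ctrl replicate 2 (-1.58, adjusted p = 0.00837) and as an interaction term of 1 DESeq2 fit over all 14 libraries (-1.11, adjusted p = 0.0472), and was at 0.12 with total-count factors (adjusted p = 0.874). hsa-miR-101-3p, depleted in both, gave 0.88 ± 0.40 (adjusted p = 0.0665), which passed when the replicate number was a block in both fits (0.86, adjusted p = 0.0255, DESeq2 estimates). It also passed with total-count factors (1.71, adjusted p = 0.000849) and without Red replicate 1 (1.60, adjusted p = 0.00466), Input replicate 1 (1.00, adjusted p = 0.0377) or IP replicate 3 (0.98, adjusted p = 0.0404), but was -0.08 without Ctrl replicate 1.

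**Figure D2:**
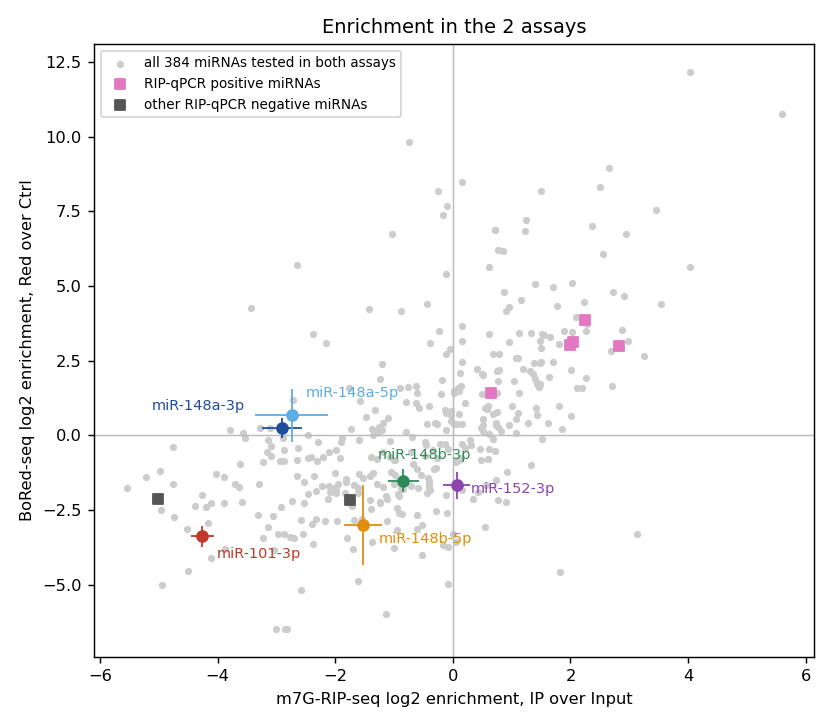
Log2 enrichment of each miRNA in m7G-RIP-seq (x axis, IP over Input) and in BoRed-seq (y axis, Red over Ctrl), for the 384 miRNAs tested in both (grey), the 6 members with their standard errors and the other RIP-qPCR panel miRNAs (squares). miR-101-3p lies at the low end of both axes, both miR-148a arms lie near 0 on the BoRed-seq axis and below -2.7 on the other, and miR-152-3p lies at 0.06 on the m7G-RIP-seq axis and -1.67 on the other.

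A ratio of family members within a library needs no size factor, so the guide arms were compared directly. Ratios are of raw counts with 0.5 added, and group values are geometric means. Of 10 pairs of members examined, 7 differed between IP and Input at an adjusted p under 0.05 (two-sided exact permutation test over libraries, Benjamini-Hochberg over the 10 pairs). The smallest p that 5 against 5 libraries allow is 0.00794. One of the 7, miR-101-5p to miR-101-3p, was set by the added 0.5, since miR-101-5p had no count in IP, and is not read further. The rest of the 7 are ratios among the same guide arms and are not independent of one another. The share of changed ratios over other pairs of miRNAs was not computed, so the count has no background. Of all single miRNAs tested, 29.9% were depleted and 27.3% enriched in IP.

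The ratio of hsa-miR-148a-3p to hsa-miR-152-3p was 1.31 in Input and 0.162 in IP, 8.12-fold lower, with every IP library below every Input library (exact permutation p = 0.00794, adjusted p = 0.0159). In BoRed-seq the ratio went the other way, from 3.88 in Ctrl to 13.97 in Red, and both Red libraries (11.3 and 17.2) lay above both Ctrl libraries (3.88 and 3.89). With 2 against 2 libraries an exact test cannot go below p = 0.333, so no test was made in BoRed-seq.

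The ratio of hsa-miR-148a-3p to hsa-miR-148b-3p, which differ at 2 bases, was 0.649, 0.570, 0.545, 0.215 and 0.213 in Input replicates 1 to 5 and 0.0495, 0.0817, 0.233, 0.0739 and 0.104 in IP. IP replicate 3 lay above Input replicates 4 and 5, so the groups overlapped, and the geometric mean fell from 0.392 to 0.0937 (exact permutation p = 0.0238, adjusted p = 0.0340). This call was lost (adjusted p = 0.0680) when any of Input replicates 1, 2 and 3 or IP replicates 1, 2, 4 and 5 was left out. The IP ratio was below the Input ratio of the same replicate number in all 5 pairs, and the groups did not overlap within replicates 1 to 3 or within replicates 4 and 5. A paired exact sign-flip permutation test gave p = 0.0625, the smallest that 5 pairs allow. In BoRed-seq the same ratio was 0.957 in Ctrl and 3.02 in Red, with Red above Ctrl in all libraries.

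The ratio of hsa-miR-148b-3p to hsa-miR-152-3p was the steadiest within Input, from 3.16 to 3.84 across all 5 replicates, although both miRNAs were higher in replicates 4 and 5. It was 3.35 in Input and 1.72 in IP, 1.94-fold lower without overlap (exact permutation p = 0.00794, adjusted p = 0.0159). In BoRed-seq it was 4.06 in Ctrl and 4.63 in Red, and the groups overlapped.

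Against each family guide arm, hsa-miR-101-3p was lower in IP. Its ratio to hsa-miR-152-3p was 4.29 in Input and 0.208 in IP, 20.6-fold lower, and its ratio to hsa-miR-148b-3p was 1.28 and 0.121, 10.6-fold lower, both without overlap (exact permutation p = 0.00794 and adjusted p = 0.0159 for each). The ratio to hsa-miR-148a-3p changed less, from 3.27 to 1.29, with overlap (exact permutation p = 0.0159, adjusted p = 0.0265), and that call was lost (adjusted p = 0.0529) without Input replicate 2 or 3 or IP replicate 2, 4 or 5. In BoRed-seq that pair showed the widest shift of the 3, from 6.15 in Ctrl to 0.497 in Red (12.4-fold lower). The ratio to miR-148b-3p was 3.93-fold lower and that to miR-152-3p 3.44-fold lower, and for each of the 3 both Red libraries lay below both Ctrl libraries.

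**Figure D3:**
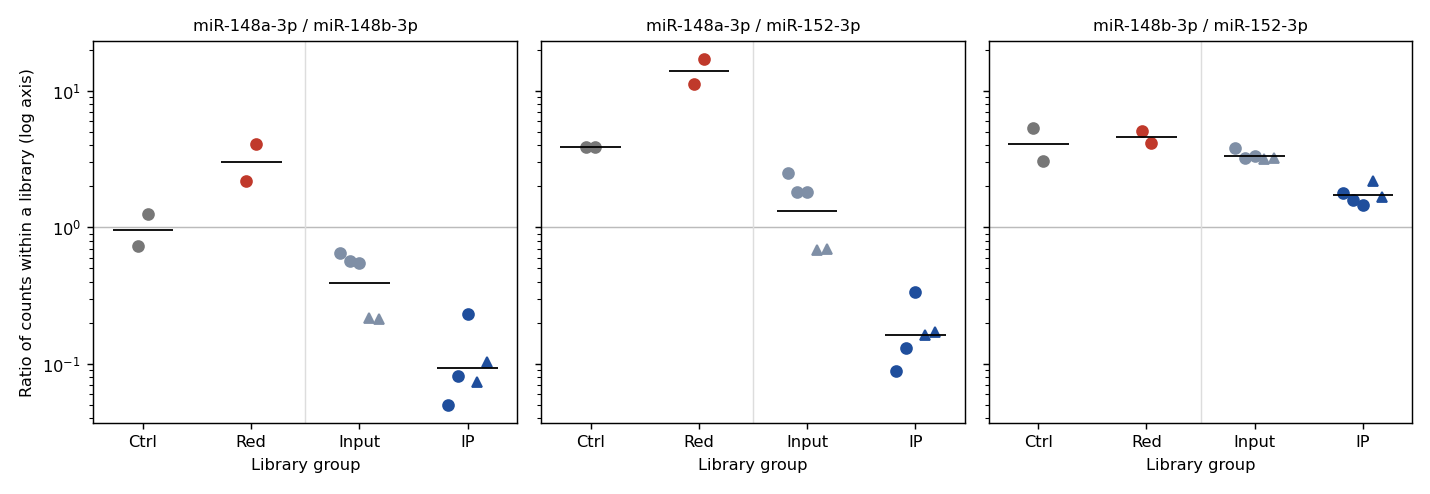
Ratio of raw counts of the family guide arms within each library (log axis, 0.5 added to each count), each point 1 library (Ctrl and Red n = 2, Input and IP n = 5, triangles for replicates 4 and 5) with the geometric mean as a line. The miR-148a-3p ratios rise from Ctrl to Red and fall from Input to IP, while miR-148b-3p to miR-152-3p stays between 3.07 and 5.36 in Ctrl, Red and Input and is 1.45 to 2.19 in IP.

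The passenger share of a hairpin, 5p counts over 5p and 3p counts together, was a few percent for miR-148a and miR-148b. For miR-101 the same quotient had a mean of 0.0086% in Input and 0.022% in Ctrl, from at most 4 raw counts of miR-101-5p in a library. The miR-101-3p counts can come from both MIR101 hairpins, whereas the miR-101-5p sequence found is that of MIR101-1. The miR-101 quotient is therefore not the share of a single hairpin. The miR-148a hairpin had 6.36% ± 1.35 (SD, n = 5 Input libraries), and 1.48% and 1.98% in the Ctrl libraries. The miR-148b hairpin had 1.64% ± 0.37 in Input, and 2.05% and 4.60% in Ctrl. Within IP the miR-148a share ran from 1.56% to 14.6%, wider than the 4.81% to 7.70% of Input. The log2 ratio of miR-148a-5p to miR-148a-3p changed by -0.14 (exact permutation p = 0.833, adjusted p = 0.833) and that of miR-148b-5p to miR-148b-3p by -0.62 (exact permutation p = 0.0873, adjusted p = 0.109), so that no change of arm balance between IP and Input was detected for either hairpin. In BoRed-seq, untested with 2 libraries a group, the miR-148a ratio was 1.43-fold higher in Red and the miR-148b ratio 1.92-fold lower, without overlap, from 4 and 10 raw counts of miR-148a-5p and 1 and 1 of miR-148b-5p in Red. The ratio of the passenger arms, miR-148a-5p to miR-148b-5p, changed by -1.58 on the log2 scale (exact permutation p = 0.143, adjusted p = 0.159).

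The passenger arm of miR-152, hsa-miR-152-5p, is not a member but completes the family. It had 28, 56, 53, 51 and 80 raw counts in Input replicates 1 to 5 and 0, 2, 0, 10 and 0 in IP, a log2 enrichment of -3.67 ± 0.81 (adjusted p = 2.13e-05, DESeq2) where its guide arm did not change detectably. However, hsa-miR-152-5p passed the filter on low counts through its Input libraries alone, so its test rests on the group where it was high. Its share of the hairpin was 2.04% ± 0.42 in Input and 0.12% ± 0.20 in IP. In BoRed-seq it had 26 and 28 counts in Ctrl and 0 and 1 in Red, and DESeq2 gave no adjusted p.

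Beside the rest of the RIP-qPCR panel, the members differed in how far they followed the negative miRNAs. The 5 positive miRNAs of the panel were all enriched in both assays, with log2 enrichments of 1.41 to 3.86 (Red over Ctrl) and 0.64 to 2.82 (IP over Input). let-7e-5p, the tumour-suppressor miRNA on which the study centred, had 3.86 and 2.25. The other negative miRNAs were depleted in both, miR-27b-3p with -2.17 and -1.75 and miR-381-3p with -2.14 and -5.01. hsa-miR-101-3p was like these in both assays (-3.38 and -4.26), whereas hsa-miR-148a-3p was depleted in m7G-RIP-seq (-2.91) and not in BoRed-seq (0.25). The panel was chosen by the study with these libraries in view, so its directions here are no independent evidence.

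Other miRNAs known to act on DNA methyltransferases or EZH2 were compared by the same tests. Of miR-29a-3p, miR-29b-3p, miR-29c-3p, miR-26a-5p, miR-26b-5p and miR-138-5p, 4 of 6 were depleted and none enriched in BoRed-seq (median -2.11, against the background of 27.2% given above). In m7G-RIP-seq 3 were depleted and 1, miR-26a-5p, enriched (median -1.79, against 29.9% and 27.3%). miR-29a-3p, a repressor of the de novo methyltransferases DNMT3A and DNMT3B, had log2 enrichments of -3.30 (Red over Ctrl) and -2.55 (IP over Input). miR-26a-5p, another repressor of EZH2, was depleted in BoRed-seq (-1.21, adjusted p = 6.13e-05, DESeq2) and enriched in m7G-RIP-seq (0.91, adjusted p = 0.0467). The latter rested on replicates 4 and 5, with 182547 and 187541 normalized counts in IP against 51484 and 56043 in Input. In replicates 1 to 3 miR-26a-5p had 46570, 58709 and 53007 in IP and 63309, 55913 and 53530 in Input, which overlapped.

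Guanosine content placed most members among the G-poor miRNAs. Mature sequences were found for 355 of the 400 miRNAs tested in BoRed-seq (88.8%) and for 602 of the 670 tested with the antibody (89.9%), with a median of 6 G in both. At most 4 G were held by 29.6% and 27.7% of them, as by miR-101-3p, miR-148a-3p, miR-148b-3p and miR-148b-5p. Across miRNAs the number of G and the log2 enrichment were related with Pearson's r = 0.37 and Spearman's rho = 0.37 in BoRed-seq and with r = 0.42 and rho = 0.44 for the antibody, given as a description, since miRNAs of a library are not independent replicates and the G number goes with overall base composition.

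At low numbers of G the median log2 enrichment did not rise steadily with the number. For 1, 2 and 3 G it was -0.43, 0.20 and -0.75 in BoRed-seq and -0.44, 0.50 and -0.91 in m7G-RIP-seq. The 49 miRNAs with 4 G in BoRed-seq had a median log2 enrichment of -1.35, and the 74 in m7G-RIP-seq one of -1.26. miR-101-3p lay far below both medians (-3.38 and -4.26), and miR-148b-3p near them (-1.51 and -0.84). miR-148a-3p, with the same 4 G at the same positions as miR-148b-3p, lay above the median in BoRed-seq (0.25) and below it in m7G-RIP-seq (-2.91). For the 6 G of miR-152-3p the medians were -0.73 among 41 miRNAs (Red over Ctrl) and -0.34 among 69 (IP over Input), against its own -1.67 and 0.06. A GG was present in 74.9% and 76.4% of the miRNAs, and among the members in miR-152-3p and miR-148b-5p.

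**Figure D4:**
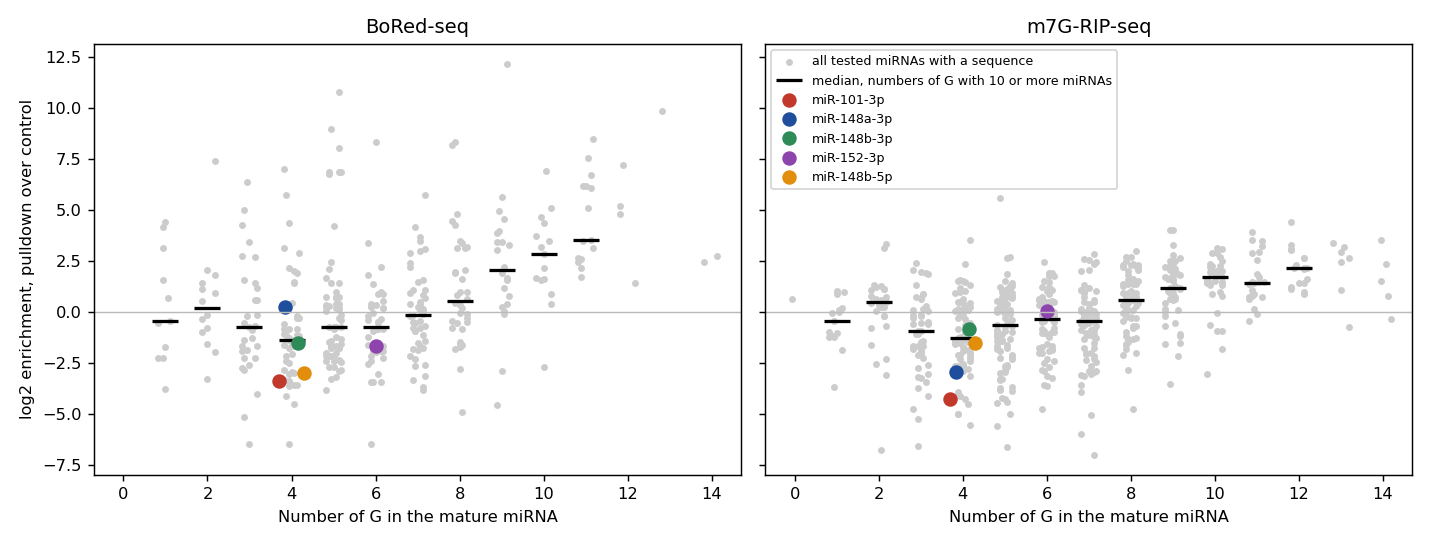
Log2 enrichment (y axis, pulldown over control) against the number of G in the mature miRNA (x axis) for all tested miRNAs with a sequence (grey, shifted slightly sideways), with the median for each number of G held by at least 10 miRNAs as a bar and 5 members in colour. miR-148a-3p and miR-148b-3p, both at 4 G, change order between the assays, and miR-101-3p lies well below the 4 G median in each.

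Each guide arm resembled different miRNAs across the 10 m7G-RIP-seq libraries. Likeness was Pearson's r of log2(normalized count + 1) among 309 miRNAs with a mean of at least 100, a measure that the IP-to-Input difference dominates. The nearest to hsa-miR-101-3p were miR-192-5p (r = 0.994), miR-140-3p (0.994) and miR-378c (0.993), and the nearest to hsa-miR-148a-3p were miR-30e-5p (0.974), miR-21-5p (0.960) and miR-30a-5p (0.959). These 6 miRNAs were all depleted in both assays, with log2 enrichments of -4.38 to -1.98 (IP over Input) and -3.81 to -1.92 (Red over Ctrl). The 3 nearest to hsa-miR-148a-3p thus had -2.36, -2.67 and -3.81 in BoRed-seq, where miR-148a-3p itself had 0.25. hsa-miR-148b-3p was nearest to miR-31-3p (0.951), miR-495-3p (0.944) and miR-221-3p (0.935), and hsa-miR-152-3p to miR-3687 (0.897), miR-409-3p (0.83) and miR-98-5p (0.83). The last 3, like miR-152-3p, did not pass the test in m7G-RIP-seq, the assay from which the likeness was taken. In BoRed-seq they went the other way from miR-152-3p, which was depleted there (-1.67). miR-3687 (5.39), miR-409-3p (0.87) and miR-98-5p (1.09) were all enriched in BoRed-seq at an adjusted p under 0.05 (DESeq2).

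**Figure D5:**
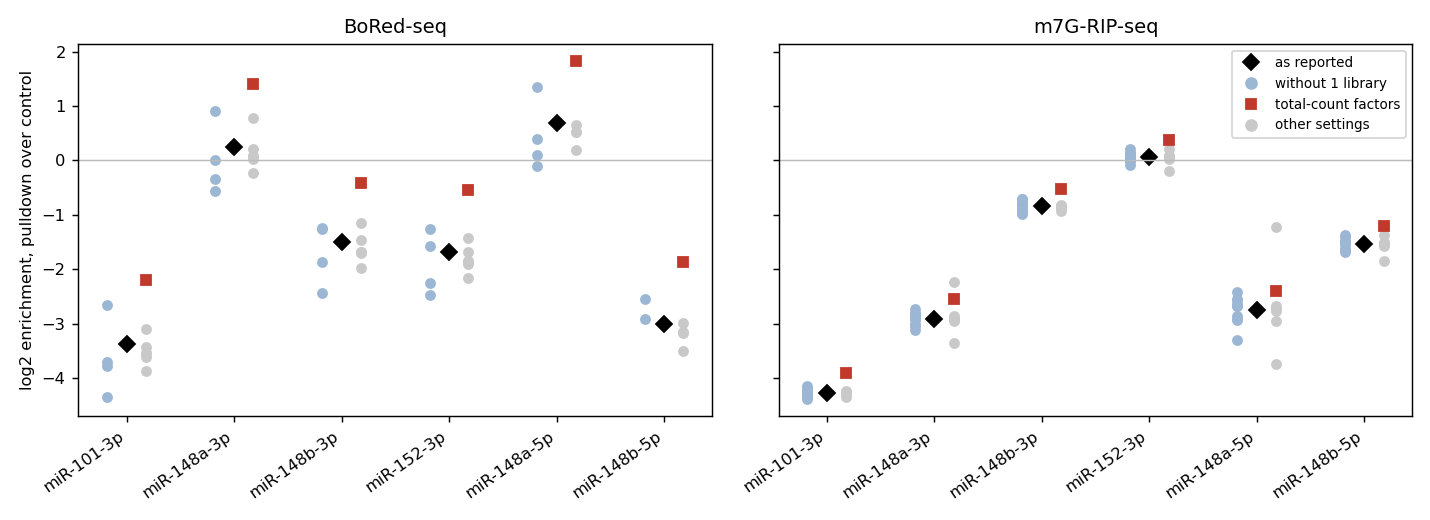
Log2 enrichment of each tested member as reported (diamonds), without each library in turn (blue), with total-count factors (red squares) and under the other settings (grey), for BoRed-seq (left) and m7G-RIP-seq (right). miR-101-3p stayed below -2.2 under every setting in both assays, the BoRed-seq values of the miR-148a arms crossed 0, and total-count factors raised all members in both assays.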

How the data were processed

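The authors trimmed single-end reads with Trimmomatic, aligned them to hg38 and counted miRBase mature miRNAs with featureCounts; the methods name STAR with few mismatches and up to several loci per read, the submitters' processing notes Bowtie2, and versions are not given in the sources used here. The deposited values are raw counts per miRNA without molecular identifiers, so intervals cover counting error only. Here a miRNA was tested where 2 (BoRed-seq) or 5 (m7G-RIP-seq) or more libraries held 10 or more counts; each table was fitted with DESeq2 1.42.0 (Wald test, median-of-ratios size factors, unshrunken fold changes), in R 4.3.3; 453 and 670 passed, of which DESeq2 gave 53 in BoRed-seq no adjusted p. edgeR 4.0.16, other factors and filters, thinning, left-out libraries and a replicate block were alternatives. The method was tested on simulated counts. Members, pairs and lists were chosen with earlier results of these data known. Most-alike miRNAs were the 3 non-members with the highest r. No replicates held the same values. In m7G-RIP-seq, deviations of same-numbered IP and Input libraries correlated at r = 0.15 to 0.39 in all 5 pairs, a pairing taken from the replicate numbers. Only 3 of the 5 IP libraries correlated best with the Input library of their own number. IP replicate 4 had r = 0.36 with Input replicate 5 and 0.31 with Input replicate 4. These values therefore cannot tell pairing by number from the sets of replicates 1 to 3 and 4 and 5. The labels do not say that replicates were separate cultures, so p-values measure the spread between these samples, which may be technical.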

Additional observations from a re-analysis of the deposited data

Results flagged for a closer look

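The difference between the assays, BoRed-seq minus m7G-RIP-seq, passed the z test for 3 members: hsa-miR-148a-3p with 3.16 on the log2 scale, hsa-miR-148a-5p with 3.43 and hsa-miR-152-3p with -1.74. The assays were compared through their estimates and standard errors, in separate tables with different kinds of control, and 29.4% of all miRNAs were higher in BoRed-seq by the same rule. No group of 5 libraries of a member held a library that stood apart from the others by Dixon's test.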

How the results depend on the processing

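With total-count factors 2 members were called in BoRed-seq instead of 4, and leaving out 1 library gave 2 (without Red replicate 1) to 3. In m7G-RIP-seq 5 members were called without any 1 library. Leaving out 1 library gave 1 (without Red replicate 2) to 4 members that differed between the assays instead of 3, and 5 to 8 changed pair ratios instead of 7. The 7 include the ratio of miR-101-5p to miR-101-3p, which was set by the added 0.5. With the replicate block, 3 members were called in BoRed-seq (hsa-miR-148b-5p was lost, adjusted p = 0.0954 in DESeq2), 5 in m7G-RIP-seq and 4 differed between the assays. In the paired sign-flip test of ratios the smallest possible exact p is 0.0625.

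Signs turned for values that had not passed a test. hsa-miR-148a-3p in BoRed-seq went to -0.24 with no count filter and from -0.56 to 0.91 without 1 library. hsa-miR-148a-5p in BoRed-seq ran from -0.11 to 1.34, hsa-miR-152-3p in m7G-RIP-seq from -0.087 to 0.21, and the assay difference of hsa-miR-101-3p from -0.082 to 1.60. hsa-miR-152-3p was at -0.20 in replicates 4 and 5 alone. The assay difference of hsa-miR-148b-3p was 0.12 with total-count factors. The log2 change of miR-148a-5p to miR-148a-3p was 0.36 with 5 counts added and ran from -0.52 to 0.26 without 1 library. It was -0.74 in replicates 1 to 3 alone and 0.75 in replicates 4 and 5 alone. The log2 change of miR-148a-5p to miR-148b-5p was -2.86 and 0.33 in the same sets. Whether these changes differed between the sets was not tested. The Red libraries limit the precision, with 1 to 24 counts for miR-148a-5p, miR-148b-5p and miR-152-3p.

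Of the single-member values, 48 of 60 in BoRed-seq and 108 of 113 in m7G-RIP-seq kept direction and side of the threshold. Among all miRNAs, edgeR called 167 depleted in BoRed-seq instead of 109, and total-count factors 46. Demanding 10 counts in every library left 71 depleted and 71 enriched of 191 in BoRed-seq and 116 depleted of 362 in m7G-RIP-seq. The cause of these changes was not tested.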
